A study of Panicum virgatum with 8 samples.

Results

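The miR164 family of switchgrass (Panicum virgatum AP13) was found at 8 of the 210 loci in the deposited table of predicted miRNA precursors. A locus was taken as miR164 when its arm of higher or equal listed abundance carried a miRBase name with miR164 in it, and each locus was counted once. These loci carried 2 of the 59 miRNA sequences of the table, ata-miR164c-5p at 5 loci and ata-miR164a-5p at 3 loci. The prefix ata stands for Aegilops tauschii, the goat grass whose miRBase entry each switchgrass sequence matched. Small RNA was sequenced from 8 libraries of AP13, with 1 library for each of 8 conditions. Leaf, stem and panicle were sampled as tissues. The stress libraries were Cold (24 h at 4 °C), Drought (sampled on day 11 after the last watering) and Re-water after Drought (sampled on day 12), each stress with its own library called Control for Cold or Control for Drought. The sample labels call the tissue of the control and stress libraries above ground tissue, whereas the series description names upper leaf blades. No library is named in the table and each sequence has a single whole-number abundance, so the libraries are taken as pooled. The unit of these abundances is not named, no read totals come with them, and no value below has a replicate error or can be assigned to a condition.

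In plants a miRNA is cut by a Dicer-like enzyme from a hairpin precursor as a duplex with its partner strand, the miRNA*. The miRNA is then loaded into an Argonaute protein, which cleaves mRNAs with a closely matching site. In Arabidopsis, miR164 is known for cleaving mRNAs of NAC transcription factors, among them the CUP-SHAPED COTYLEDON genes that set the boundaries between organs, and NAC genes that act in lateral root formation and leaf ageing. Targets are not listed in the table and were not analysed here, so the data bear on the miRNA and its precursors and not on the NAC mRNAs.

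The mature forms of switchgrass miR164 were both 21 nt long, began with U (printed as T, as in the table) and had a GC content of 61.9%. They are shown because the whole family rests on them, with bases 2 to 8, the seed, in capitals.
ata-miR164c-5p: tGGAGAAGcagggcacgtgca
ata-miR164a-5p: tGGAGAAGcagggcacgtgct
They had the same seed and differed by 1 substitution at the 3′ end, A21T from miR164c to miR164a, counted from 1 at the 5′ end of the miRNA. Outside the family, 0 of the other miRNA sequences in the table had this seed. Names follow the miRBase entry that a sequence matched, so this count is not separate evidence on the family. The same 2 sequences occur in Brachypodium distachyon, a grass that the study also covers, but under exchanged letters. The sequence of ata-miR164c-5p is that of Brachypodium miR164a-5p, miR164b and miR164e, and the sequence of ata-miR164a-5p is that of Brachypodium miR164c-5p. A further Brachypodium form, miR164f, is shown for its changes outside the seed, and it was not found among the miRNAs of the switchgrass table.
Brachypodium miR164f: tGGAGAAGaagggcacatgca
It differed from ata-miR164c-5p by C9A and G17A. The letters after miR164 therefore do not mark the same sequence across these grasses.

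The mature forms were far apart in listed abundance. The abundance of ata-miR164c-5p was 1795, which ranked 13 among the 59 miRNA sequences and made up 0.639% of their summed abundance of 280996. That of ata-miR164a-5p was 31, which ranked 37 and made up 0.011%. The ratio of the former to the latter was 57.9, and the median over the 59 sequences, 120, lay between them. The sequences next to ata-miR164c-5p in the order of abundance were gma-miR156o at 1866 and ata-miR171a-3p at 1362. Those next to ata-miR164a-5p were osa-miR529b at 46, and ata-miR169f-5p and stu-miR399f-3p at 29 each. Without replicates, none of these neighbours could be separated from miR164 beyond an error. Both forms together made up 0.65% of the summed abundance, of which the most abundant sequence, ata-miR166d-3p, alone made up 66.0%.

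**Figure D1:**
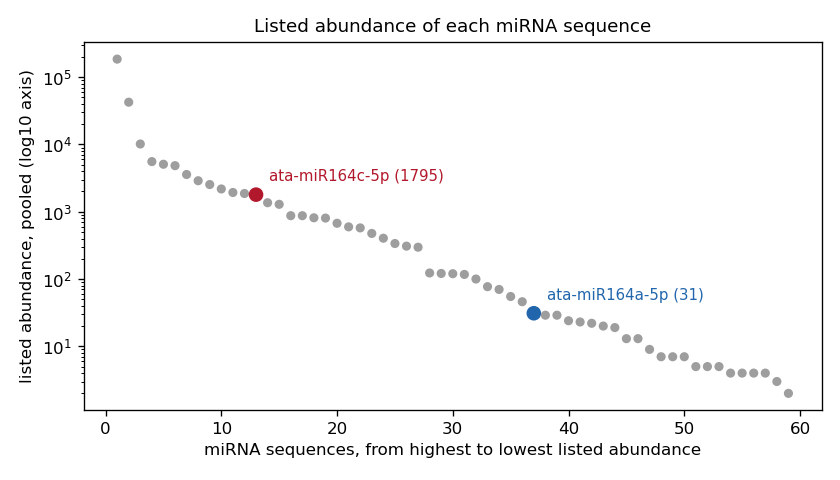
Listed abundance (log10 axis, unit not named, libraries pooled) of each of the 59 miRNA sequences, ordered from highest to lowest, with 1 point per sequence and no error. The point of ata-miR164c-5p (1795, red) sits at rank 13 and that of ata-miR164a-5p (31, blue) at rank 37.

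The abundance belongs to a sequence and not to a locus, so all 5 loci of ata-miR164c-5p list 1795 and all 3 loci of ata-miR164a-5p list 31. What each locus contributed was not measured. It also did not always separate forms of different length. In the entries for the 3′ arm of the second Chr03K locus and Chr03N, a form of ata-miR164c-5p of 20 nt that lacks the last nucleotide was listed with the same value of 1795 and the same name as the form of 21 nt. This shorter form, shown because it is common to both mature sequences, lacks the only position at which they differ.
Form of 20 nt: tggagaagcagggcacgtgc
A miRNA* form of 20 nt in the same entries likewise had the value 17 of its form of 21 nt. In the whole table, 29 pairs of sequences were nested 1 within the other, and 19 of these pairs had the same value above 0. How reads of 20 nt were divided between ata-miR164c-5p and ata-miR164a-5p can therefore not be read from the table.

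The miRNA* strands were more varied than the miRNAs, with 4 sequences for the 8 loci, each of 21 nt. They are shown because they divide the loci into 4 groups, with the positions that differ among them in capitals.
miRNA* of 3 loci, Chr01N (both loci) and scaffold_610: caCgtgCGcTCctTctccaTc
miRNA* of Chr02K and Chr02N: caCgtgTTcTCctTctccaTc
miRNA* of Chr03K (first locus): caTgtgCCcTTctCctccaCc
miRNA* of Chr03K (second locus) and Chr03N: caTgtgCCcATctTctccaCc
Of the 21 positions, 14 were the same in all 4 sequences and 7 differed. The sequences fell into 2 types by their differences. The miRNA* of Chr01N and that of Chr02K and Chr02N differed at 2 positions (C7T and G8T, the first-named strand's base first, counted from its 5′ end), and those of the first and second Chr03K loci also at 2 positions (T10A and C14T). Across these types there were 5 or 6 differences, of which C3T, C11T and T20C were found in every comparison. Thus ata-miR164c-5p, a single mature sequence, was encoded at hairpins with miRNA* strands of both types, and the miRNA* of ata-miR164a-5p was closer to the one of chromosome 2 than the chromosome 2 and chromosome 3 strands were to each other.

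The miRNA* was listed above 0 at 4 of the 8 miR164 loci. It was listed at 5 for Chr02K and Chr02N, under the maize name zma-miR164a-3p, so that the listed miRNA was 359 times its miRNA*. For the second Chr03K locus and Chr03N it was listed at 17, as zma-miR164b-3p, a ratio of 105.6. These ratios set a miRNA value shared by 5 loci against a miRNA* value shared by a pair of loci, and they are not ratios of single hairpins. The first Chr03K locus, although it carries the abundant ata-miR164c-5p, listed its miRNA* at 0, as did all 3 loci of ata-miR164a-5p. Among the 202 loci of other families, 88 (43.6%) listed a miRNA* at 1 or more, against 50% of the miR164 loci. A miRNA* at 0 had no miRBase name at any of these 4 loci, and 0 structures of the table, read by the more abundant arm, paired a value of 0 with a name. A 0 is therefore not read here as absence of the strand. Both miRNA* sequences of chromosome 3 were close to an annotated Brachypodium strand, miR164a-3p. It is shown for this comparison with bases 2 to 8 in capitals.
Brachypodium miR164a-3p: cATGTGCCcttcttctccacc
The miRNA* of the first Chr03K locus differed from it at 1 position, C14T (the switchgrass base first, counted from the 5′ end of the miRNA*). That of the second Chr03K locus and Chr03N also differed from it at 1 position, base 10, which is A in switchgrass and T in Brachypodium. The miRNA* of ata-miR164a-5p differed from Brachypodium miR164c-3p at 2 positions, C3T and T20G.

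Pairing of miR164 with its miRNA* was close in every hairpin, with 0 nt in bulges at all 8 loci, as at 99 of the 202 other loci (49%). The listed number of mismatch positions was 2 at the first Chr03K locus, 3 at the Chr01N, scaffold, Chr02K and Chr02N loci, and 4 at the second Chr03K locus and Chr03N. The median was 3, equal to that of the other loci. The 2 strands were next set against each other with an overhang of 2 nt at the 3′ end of the miRNA*, the usual product of Dicer-like cleavage, which left 19 facing positions. Of these, 17 were Watson-Crick pairs for ata-miR164a-5p, with 2 mismatches and 0 G-U wobbles. The Chr02K and Chr02N duplex had 16 Watson-Crick pairs, 2 wobbles and 1 mismatch, and each of the duplexes from chromosome 3 had 16 Watson-Crick pairs, 1 wobble and 2 mismatches. The listed counts were higher than this for 3 of the 4 duplexes and the same for that of the first Chr03K locus. Bases outside these strands, which the table does not give, were not used here.

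Position 9 of the miRNA was unpaired in all 4 miR164 duplexes, with C facing C or T. The remaining mismatches differed between the loci. They lay at position 6 (A facing C) at the first Chr03K locus, at position 10 (A facing A) at the second Chr03K locus and Chr03N, and at position 12 (G facing G) in the ata-miR164a-5p hairpins. In this register position 9 was the only mismatch at Chr02K and Chr02N, whose wobbles were at positions 12 and 13. The authors' listing has 3 mismatch positions for this duplex, with up to 2 in a row. The duplexes of chromosome 3 had their wobbles at position 17. Of the 138 distinct duplexes, 81 had a miRNA* written in A, C, G and T alone and at most 5 mismatches in this register. The 4 of miR164 were among them, and the other 57 were left out of the comparison. Over the 77 duplexes of other families that were kept, position 9 was mismatched in 4 (5.19%), and the most often mismatched position was 12, in 26 (33.8%). The 4 miR164 duplexes share nearly the same miRNA and are not independent, so no test was made of this difference. The C14T difference between the first Chr03K strand and Brachypodium miR164a-3p lies at the base that faces position 6. Among the 4 duplexes, the position 6 mismatch was found in that of the first Chr03K locus alone. The base at which the second Chr03K and Chr03N strand differs from miR164a-3p faces position 10, a mismatch found in that duplex alone. The predicted binding energy of the isolated strands (RNAduplex) was -29.2 kcal/mol for ata-miR164a-5p, -28.1 kcal/mol for the Chr02K and Chr02N duplex, -27.2 kcal/mol for the first Chr03K locus and -29.7 kcal/mol for the second Chr03K locus and Chr03N. The median over the 81 duplexes kept was -27.8 kcal/mol, so 3 of the 4 miR164 duplexes were below it and 1 above.

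**Figure D2:**
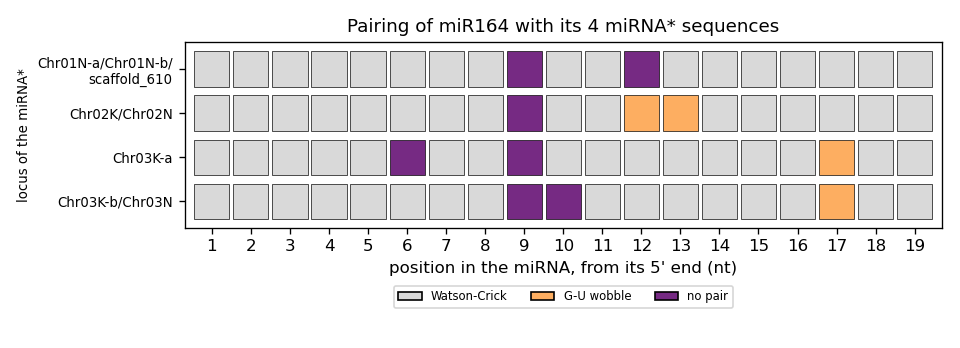
Pairing state at each of 19 positions of the miRNA (x axis, nt from the 5′ end) for the 4 distinct miRNA* sequences of miR164 (rows, named by their loci, Chr03K-a being the first and Chr03K-b the second Chr03K locus). Grey is a Watson-Crick pair, orange a G-U wobble and purple no pair, and position 9 is purple in all 4 rows.

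The miR164 precursors were all of one arm arrangement, with the miRNA on the 5′ arm at 8 of 8 loci against 106 of the 202 other loci. The authors' call was miRNA candidate at 8 of 8 loci, against 151 (74.8%) of the others. This call is given to each predicted structure, and the deposited table is wider than the authors' final set of conserved miRNAs, so it is not their final annotation. All 8 loci were within the study's stated limits on miRNA length, precursor length, mismatches and bulges, as were most loci of the table (185 of 210, miR164 included). Hairpins of ata-miR164a-5p were the shortest of the family. On Chr01N they lay on the minus strand from 91407913 to 91408028 and from 91643882 to 91643997, 235969 nt apart, and on scaffold_610 from 31169 to 31284 on the minus strand (coordinates of version 4.1 of the genome). Each had a precursor of 116 nt, a hairpin of 107 nt and 56 nt between the miRNA and the miRNA*. The energies were -61.54 kcal/mol at the first Chr01N locus and -61.88 kcal/mol at the second and at scaffold_610, so the last 2 were alike in every listed value but position. Whether the scaffold is a separate copy or an unplaced stretch of the same locus could not be told apart. No locus with ata-miR164a-5p was listed on a K chromosome.

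The ata-miR164c-5p hairpins ranged more widely. The Chr02K precursor (minus strand, 92647021 to 92647155) had a hairpin of 126 nt, 43 nt between the strands and an energy of -61.31 kcal/mol. The Chr02N precursor (plus strand, 102473846 to 102474006) had a hairpin of 149 nt, 69 nt between the strands and -74.53 kcal/mol. The second Chr03K locus (plus strand, 41951385 to 41951566) and Chr03N (plus strand, 22286039 to 22286222) were nearly alike, with 165 and 167 nt of hairpin, 90 and 92 nt between the strands, and -91.92 and -95.30 kcal/mol. The first Chr03K locus (minus strand, 20751219 to 20751453) stood apart from these. Its hairpin of 233 nt and energy of -133.0 kcal/mol were the longest and the lowest of the family, with 176 nt between the strands, and its energy ranked 5 from the lowest among all 210 loci while its length ranked 14 from the longest. It lay 21200166 nt from the second Chr03K locus and on the other strand.

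**Figure D3:**
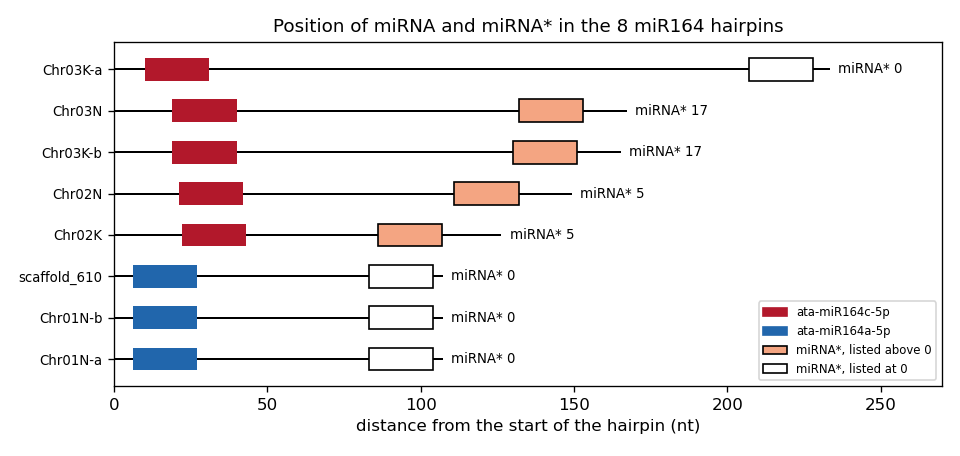
The 8 miR164 hairpins drawn to scale (x axis, nt from the start of the hairpin), with the miRNA in red (ata-miR164c-5p) or blue (ata-miR164a-5p) and the miRNA* in orange where listed above 0 and white where listed at 0. The miRNA is on the 5′ arm in all 8, and the distance between the strands runs from 43 nt (Chr02K) to 176 nt (Chr03K-a, the first Chr03K locus).

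As a family, the miR164 hairpins had a median length of 137.5 nt, against 124.5 nt for the 202 other loci, and a median energy of -68.2 kcal/mol against -68.82 kcal/mol. Longer hairpins hold more base pairs, so energies were also divided by length, and per nucleotide the median was -0.571 kcal/mol for miR164 and -0.532 kcal/mol for the others. By this measure the ata-miR164a-5p hairpins (-0.575 to -0.578 kcal/mol per nt) and those of chromosome 3 (-0.557 to -0.571) were lower than the Chr02K hairpin (-0.487) and the Chr02N hairpin (-0.5). The Chr02 hairpins ranked 157 and 140 from the lowest among the 210 loci, and the other 6 ranked between 58 and 89. The long hairpin of the first Chr03K locus, ranking 69, was thus not extreme for its length. Loci are not replicates and several are copies of each other, so these medians are descriptions and were not tested.

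**Figure D4:**
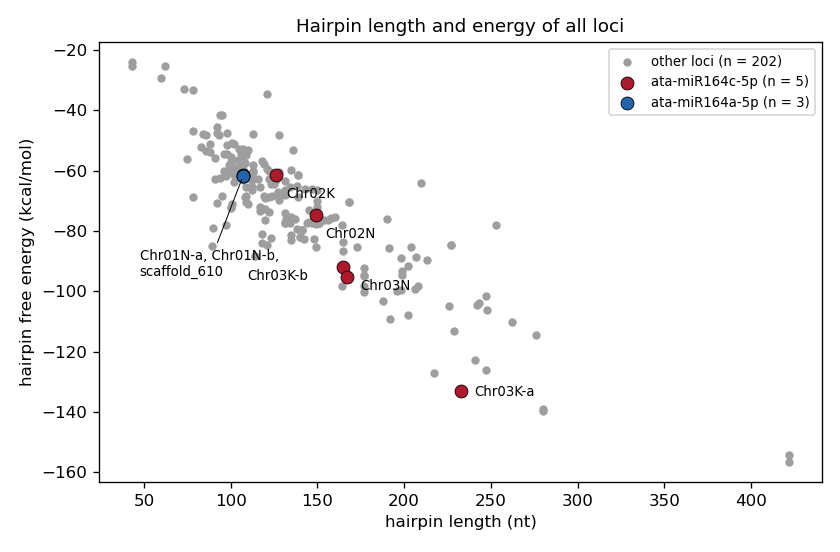
Hairpin length (x axis, nt) against predicted free energy (y axis, kcal/mol), with 1 point for the most stable structure of each of 210 loci. The 3 ata-miR164a-5p points (blue) overlap at 107 nt, and the ata-miR164c-5p points (red) run from 126 nt to 233 nt within the spread of the 202 other loci (grey).

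Switchgrass is a tetraploid, and its chromosomes come from a K and an N subgenome. By subgenome, 3 of the 8 miR164 loci belonged to K and 4 to N, and 1 was on the scaffold. On chromosomes 2 and 3, ata-miR164c-5p had 1 locus on K and 1 on N with the same miRNA*, so 4 loci formed 2 such pairs. The first Chr03K locus and the ata-miR164a-5p loci had no such partner in the table. In both pairs the N copy had the longer hairpin and the lower energy. The chromosome 2 pair differed, K minus N, by -23 nt and 13.2 kcal/mol, and the chromosome 3 pair by -2 nt and 3.38 kcal/mol. Over all 34 such pairs of the table the energy difference on chromosome 2 ranked 3 in size and that on chromosome 3 ranked 14, and the median size over the 32 pairs of other families was 2.67 kcal/mol and 4 nt. Pairs of other families went in both directions. Their largest energy differences, K minus N, were 17.06 and -16.92 kcal/mol, and their largest length differences were 32 and -31 nt. Per nucleotide both miR164 pairs differed by 0.014 kcal/mol, against a median size of 0.021 kcal/mol in the other pairs. The pairing of miRNA and miRNA* was the same in the copies, because the strands were identical, and the copies on chromosome 2 are listed on opposite strands while those on chromosome 3 are on the same strand. With 2 pairs no test of K against N was made.

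**Figure D5:**
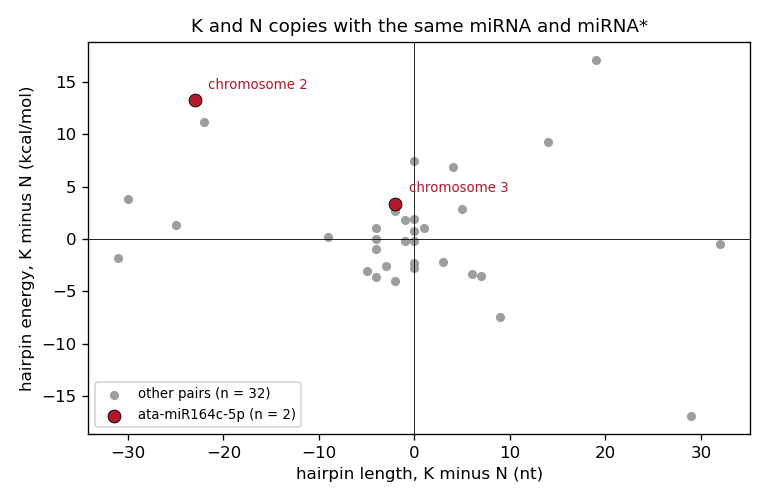
Difference in hairpin length (x axis, nt) and in hairpin energy (y axis, kcal/mol), K minus N, for the 34 pairs of loci that share miRNA, miRNA* and chromosome number across the K and N subgenomes. The miR164 pairs (red) are at -23 nt and 13.2 kcal/mol on chromosome 2 and at -2 nt and 3.38 kcal/mol on chromosome 3, and grey points are the 32 pairs of other families.

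With 8 loci, miR164 had fewer loci than 9 of the 29 families (grouped by miRBase number), and 0 other families had as many. The 5 loci of ata-miR164c-5p and the 3 of ata-miR164a-5p compare with a median of 2 loci per sequence over the 59 sequences. Several predicted structures were listed for 5 of the 8 loci, and their energies lay within 2.74 kcal/mol of each other, the widest being at the first Chr03K locus (-133.0 and -130.3 kcal/mol). The number of mismatches changed between structures at 1 locus, the first on Chr01N, where it was 3 in the most stable structure and 4 in the other.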

How the data were processed

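Per the study's methods, the authors trimmed the reads of 8 small RNA libraries, aligned them with Bowtie (0.12.7 in the submitters' processing notes) to the switchgrass genome, version 4.1, tested sequences of 20 to 24 nt matching miRBase 21 with modified miREAP, and folded precursors with UNAFold. Abundances are treated as a deposited score, since the table that the authors deposited names neither a unit nor a library. Depth per library was not used here. Other deposited values are energies (kcal/mol), lengths, mismatches and coordinates.

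A locus entered once, represented by the arm of higher or equal abundance (if equal, the one listed first) in its most stable structure. The study's limits used here were 20 to 24 nt for the miRNA, under 300 nt for the precursor, up to 5 mismatches and up to 3 nt in bulges. Its methods also set limits on abundance, genome hits, strand bias and abundance bias, which were not applied here. Duplex energies came from RNAduplex (ViennaRNA 2.7.2), the rest from Python 3.11.15 with pandas 2.3.3, numpy 2.4.6 and matplotlib 3.10.9. Brachypodium sequences were read from the study's supplement, of which a part was used, without its values. The selection and the pairing were tested on simulated data. All miR164 loci are named, and of other families only neighbours in abundance and ata-miR166d-3p, added after its value was seen. The members and alternatives were chosen with earlier results of these data known. No group has replicates, so no test was run. Targets, precursor sequences and the genome sequence were not analysed here.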

Additional observations from a re-analysis of the deposited data

How the results depend on the processing

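Of 18 alternatives, 9 left the value unchanged or a count within 1.5 times. The count of 8 miR164 loci remained 8 within the study's limits, with miRNA candidate calls only and with overlapping loci merged. It was 4 for a miRNA* listed at 1 or more, and 4 with each distinct miRNA:miRNA* pair counted once. Counting each pair once, here and in the medians below, and omitting scaffolds (7 loci) were chosen after seeing the data. A miRNA* at 10 or more was listed at 2 loci, Chr03N and the second on Chr03K, in place of 4. Among the 202 loci of other families, 35 (17.3%) listed a miRNA* at 10 or more. The share of abundance was 1.91% without ata-miR166d-3p. The median length was 148 nt for whole precursors and 158 nt with each pair once. The median energy was -84.92 kcal/mol with each pair once and -0.571 kcal/mol per nucleotide. In the medians with each pair once, Chr02N and Chr03N, the longer copies of lower energy, stood for their pairs. The mean K minus N energy was 8.3 kcal/mol, or 0.014 kcal/mol per nucleotide. The values per nucleotide are a change of unit. The family medians of length and energy depended on whether loci with the same pair were each counted, and no medians by pair are given for the other families. No paired analysis was possible because conditions are unreplicated and their libraries pooled.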
